A study of Mus musculus with 6 samples.

Results

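The genes Mc2r, Crhr1, Cyp11b1 and Akr1b7 are best known from the hormonal stress axis and the adrenal cortex, and their RNA was measured here in Leydig cells, the androgen-producing cells between the seminiferous tubules of the testis. They were selected by symbol from the authors' deposited table, which covers Leydig cells of the fetus (FLCs) and of the adult (ALCs) and in which all 4 genes have a row among the 10580 listed genes. FLCs came from XY embryos at E18.5 of CD-1 females mated with heterozygous Tg(Nr5a1-GFP) males, and ALCs from heterozygous Tg(Nr5a1-GFP) males at P100, so that both stages carry the transgene, and no treatment is named for either. There were 3 libraries per stage. Nr5a1 encodes a nuclear receptor of steroidogenic cells that Sertoli cells also express, so the cells with the strongest fluorescence were sorted, and FLCs of separate sorts were pooled to obtain enough RNA. The value used for each gene is the authors' mean over all 6 libraries of read counts divided by size factors, in normalized counts. It joins both stages, so the level in FLCs or in ALCs, the spread between libraries and the difference between the stages are not analysed here. The columns of the same table that hold the authors' own comparison were not used, and the name of this gene group as genes of fetal cells was therefore not checked.

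In the adrenal cortex, corticotropin (ACTH) from the pituitary binds the melanocortin 2 receptor, encoded by Mc2r, and raises cyclic AMP, which drives the uptake and conversion of cholesterol to corticosteroids. ACTH itself is released by corticotropin-releasing hormone (CRH), whose main receptor is encoded by Crhr1. Cyp11b1 encodes the 11 beta-hydroxylase that makes corticosterone in the mitochondria of adrenal cells. Akr1b7 encodes an aldo-keto reductase that is abundant in the adrenal cortex and reduces aldehydes such as isocaproaldehyde, a product of cholesterol side-chain cleavage. Leydig and adrenocortical cells arise from a common primordium and share the first steps of steroid synthesis.

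The sequences below are shown because a read within their shared part would match more than 1 gene. They hold the longest stretch that the coding sequence of Cyp11b1 shares with that of Cyp11b2, and that of Akr1b7 with that of Akr1b10. Each line is coding sequence from GENCODE vM21 transcripts on GRCm38, written 5′ to 3′, and capitals mark the longest stretch of identical letters shared by the coding sequences of the pair. In the pair Cyp11b1 and Cyp11b2, the aldosterone synthase gene, the stretch spans 244 bases, from coding position 26 to 269 counted from the A of the start codon.
Cyp11b1: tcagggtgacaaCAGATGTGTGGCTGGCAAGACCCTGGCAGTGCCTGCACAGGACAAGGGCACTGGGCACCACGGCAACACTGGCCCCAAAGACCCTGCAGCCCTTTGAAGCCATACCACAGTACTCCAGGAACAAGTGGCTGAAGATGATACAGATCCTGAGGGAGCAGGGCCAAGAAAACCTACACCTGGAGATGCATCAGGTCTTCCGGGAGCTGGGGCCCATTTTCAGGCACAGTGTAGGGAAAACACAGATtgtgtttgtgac
Cyp11b2: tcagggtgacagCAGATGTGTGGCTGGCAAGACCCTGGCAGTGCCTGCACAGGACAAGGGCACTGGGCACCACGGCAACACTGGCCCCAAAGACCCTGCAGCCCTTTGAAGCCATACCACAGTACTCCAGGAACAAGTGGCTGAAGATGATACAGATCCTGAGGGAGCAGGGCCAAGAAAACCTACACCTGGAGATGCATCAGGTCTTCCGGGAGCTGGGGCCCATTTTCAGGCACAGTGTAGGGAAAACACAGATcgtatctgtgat
In the pair Akr1b7 and Akr1b10, the stretch spans 59 bases, from coding position 247 to 305.
Akr1b7: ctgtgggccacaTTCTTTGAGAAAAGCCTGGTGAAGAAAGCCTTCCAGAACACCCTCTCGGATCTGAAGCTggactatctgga
Akr1b10: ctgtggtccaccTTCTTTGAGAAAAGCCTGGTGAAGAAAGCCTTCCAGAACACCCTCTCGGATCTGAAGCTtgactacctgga

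Among the receptors, Crhr1 had the highest level of the 4 genes. The authors' mean over the 6 libraries was 3887 normalized counts for Crhr1, rank 1178 of the 10580 listed genes, with 88.9% of them below it. Mc2r had a mean of 132 normalized counts, rank 7819, with 26.1% of the listed genes below it. The median of all listed genes was 679 normalized counts and the quartiles were 119 and 1928, so Crhr1 lay above the upper quartile and Mc2r just above the lower one. Among the enzymes, Akr1b7 had a mean of 523 normalized counts, rank 5811, and Cyp11b1 one of 234 normalized counts, rank 7119. Both lay between the lower quartile and the median. Together the 4 genes held 0.0215% of the sum of the means of all listed genes. The table holds a selection of genes, all with a low adjusted p-value in the authors' comparison of the stages, so these ranks are not ranks among all expressed genes.

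Because 3 of the 6 libraries in each mean belong to each stage, the mean of either stage lies between 0 and 2 times the pooled mean, whatever the difference between the stages. This upper limit was 264 normalized counts for Mc2r and 467 for Cyp11b1. It was 1046 normalized counts for Akr1b7 and 7774 for Crhr1. Even at its upper limit, a stage mean of Mc2r or Cyp11b1 would stay below the pooled median of the listed genes. The sum over the 6 libraries came to 793 normalized counts for Mc2r, 1402 for Cyp11b1, 3137 for Akr1b7 and 23321 for Crhr1. The number of reads behind these sums differs from them by the size factors, and the depth of each library is not known from the mean.

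**Figure D1:**
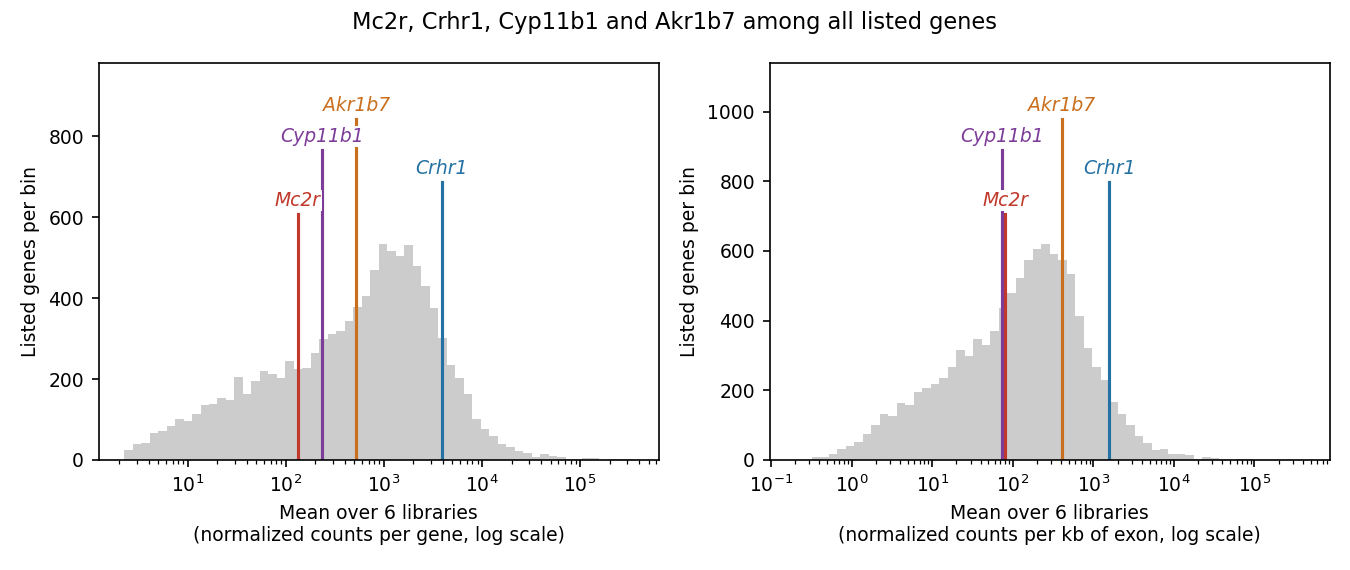
The grey histograms show the authors' mean over 6 libraries of all listed genes on a log scale, in normalized counts per gene (left, 10580 genes) and per kb of exon (right, the 10504 genes with a length), and the coloured lines mark Mc2r, Crhr1, Cyp11b1 and Akr1b7. Per gene Mc2r stands lowest at 132 and Crhr1 highest at 3887, whereas per kb Mc2r and Cyp11b1 nearly coincide.

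A longer transcript gives more reads, so levels of different genes were compared per kb of exonic length, for which all exons of a gene in GENCODE vM21 were merged. Crhr1 had 1580 normalized counts per kb and Akr1b7 408, against a median of 147 for the 10504 listed genes with a length. Mc2r had 81.1 normalized counts per kb and Cyp11b1 73.8, both below that median. Per kb, the level of Crhr1 was 19.5 times that of Mc2r and 21.4 times that of Cyp11b1. The level of Akr1b7 was 5.03 times that of Mc2r and 5.53 times that of Cyp11b1, the latter being 3.55 times per coding kb. With the length of the coding sequence in place of the exonic length, Cyp11b1 had 155 normalized counts per coding kb and Mc2r 149, against a median of 449 for the 10439 listed genes with a coding length, so the order of these genes turned with the length used. Crhr1 came first and Akr1b7 second with either length. By rank per kb of exon, Akr1b7 stood at 2726 and Crhr1 at 638. Without values per library, no error can be put on these ratios, and they need not hold within either stage.

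The ACTH receptor needs the accessory protein encoded by Mrap to reach the cell surface, and Mrap had a far higher pooled mean than the receptor gene. Both means join FLCs and ALCs, so their ratio need not hold within either stage. Mrap had a mean of 3068 normalized counts, rank 1595, and 1941 normalized counts per kb, which was 23.9 times the level of Mc2r per kb of exon and 54.1 times per coding kb. Mrap2, which encodes a related accessory protein, had a mean of 55.1 normalized counts and 24.4 per kb, so Mc2r lay between the accessory genes by either measure. Of the 8 genes of the list of melanocortin receptors and their partners, 3 have a row. The other melanocortin receptor genes, Mc1r, Mc3r, Mc4r and Mc5r, and Pomc, which encodes the precursor of ACTH, have no row and were not analysed here.

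Of the 7 genes of the CRH family, Crhr1 alone has a row. The ligand genes Crh, Ucn, Ucn2 and Ucn3, the gene of the binding protein, Crhbp, and the gene of the other receptor, Crhr2, were not analysed here. Lhcgr, the receptor gene for luteinizing hormone, through which the pituitary drives adult Leydig cells, likewise has no row, so that the levels of the stress-hormone receptors could not be set beside it. A missing row says nothing of the level of a gene, since the table holds a selection.

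The first steps of corticosteroid synthesis, which Leydig cells use to make androgens, had levels far above that of Cyp11b1. Of the 14 genes listed for synthesis and metabolism of corticosteroids, 11 have a row. Cyp11a1, which encodes the side-chain cleavage enzyme, had 48124 normalized counts per kb, 652 times the level of Cyp11b1. Star, whose product carries cholesterol into mitochondria, had 21275 normalized counts per kb, 288 times the level of Cyp11b1 per kb of exon and 661 times per coding kb. Hsd3b1, which encodes the enzyme of the next step, had 88990 normalized counts per kb. Cyp17a1, whose product acts on the way to androgens and not to corticosterone, had 102447. Cyp11b1 thus ranked below all the listed genes of the early steps by level per kb. It receives electrons through the proteins encoded by Fdxr and Fdx1, which had 8386 and 4530 normalized counts per kb. Cyp21a1, which encodes the 21-hydroxylase that makes the substrate of Cyp11b1, and Cyp11b2 have no row, nor has Por.

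The genes that interconvert active and inactive corticosteroids were lower still. Hsd11b2, whose product inactivates corticosterone, had 35.8 normalized counts per kb and a mean of 65.9 normalized counts. Hsd11b1, whose product regenerates it, had 6.67 normalized counts per kb and a mean of 28.3. The level of Cyp11b1 per kb was 2.06 times that of Hsd11b2 and 11.1 times that of Hsd11b1, the latter being 4.81 times per coding kb. H6pd, which supplies the cofactor of the latter enzyme, had 643 normalized counts per kb.

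All 4 Akr1b genes of the list have a row. Akr1b8 had the highest level, with 2583 normalized counts per kb and a mean of 3872 normalized counts, which was 6.33 times the level per kb of Akr1b7. Akr1b10 had 280.4 and Akr1b3, the aldose reductase gene, 112 normalized counts per kb of exon, both below the 408 of Akr1b7. This order too depended on the length. Per coding kb, Akr1b10 had 1045 normalized counts, Akr1b3 993 and Akr1b7 552, so that Akr1b7 then came last in its family.

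**Figure D2:**
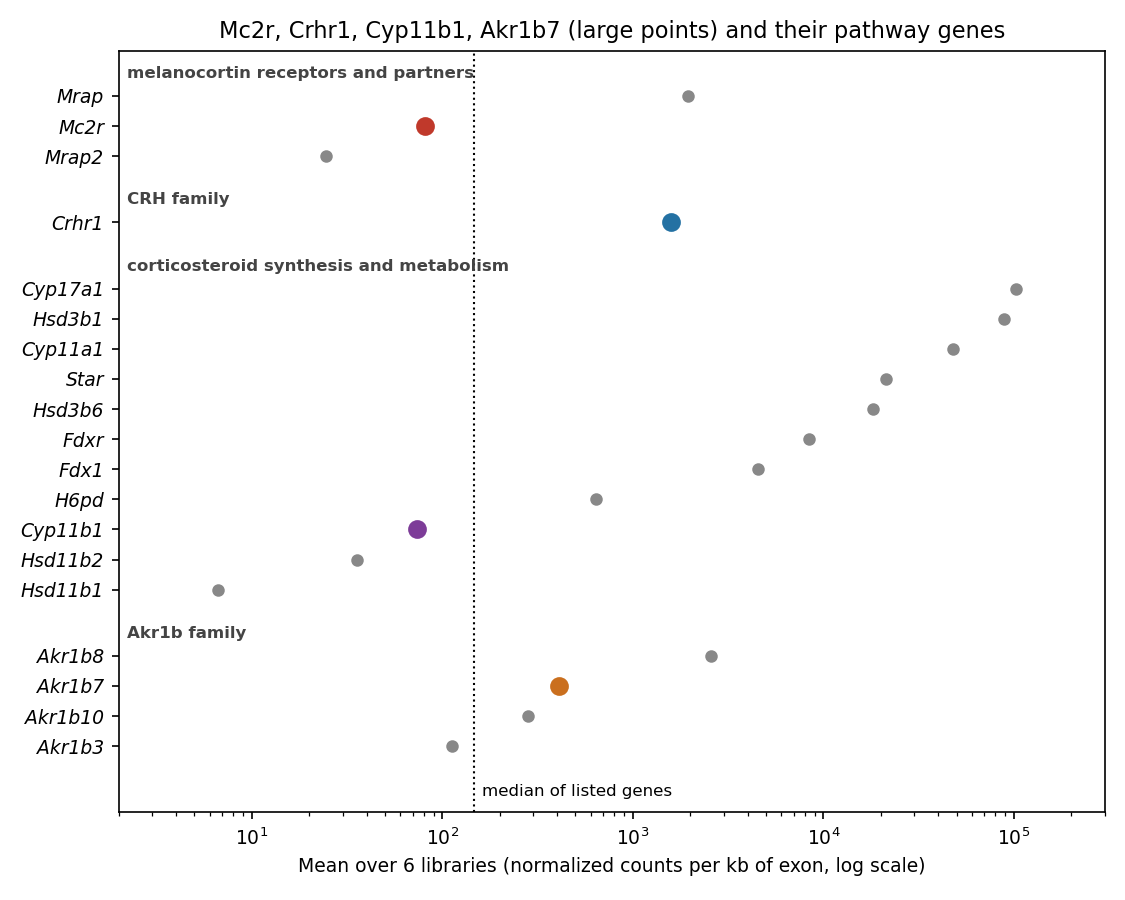
Each point is the authors' mean over 6 libraries of 1 gene, in normalized counts per kb of exon on a log scale, for the genes of 4 lists that have a row, and the dotted line is the median of the listed genes (147). Mc2r (81.1) and Cyp11b1 (73.8) stand left of the line, Crhr1 (1580) and Akr1b7 (408) right of it, and Cyp11a1, Star, Hsd3b1 and Cyp17a1 lie over 2 powers of 10 to the right of Cyp11b1.

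The genes differ in structure and in how surely reads can be assigned to them. On GRCm38, Mc2r lies on chromosome 18 from 68406907 to 68429320 on the minus strand, with 1 annotated transcript of 3 exons. Crhr1 lies on chromosome 11 from 104132855 to 104175523 on the plus strand, with 13 exons. Neither overlaps another annotated gene. Cyp11b1, with 9 exons, lies on chromosome 15 from 74834125 to 74841643 on the minus strand, and 285 of its 3165 exonic bases overlap those of Gml2 on the other strand. Akr1b7, with 10 exons, lies on chromosome 6 from 34412334 to 34423142 on the plus strand, and 348 of its 1281 exonic bases, or 27.2%, overlap the processed pseudogene Gm13857 on the other strand. The kit marks the strand, but whether the authors' counting used it is not given in the sources used here, so reads on these shared bases may belong to either gene.

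Reads of 50 bases were represented by all windows of that length along each annotated transcript, and each window was searched in the transcripts of all other genes on the same strand. No window of Mc2r, of 1582, and none of Crhr1, of 2411, occurred in another gene. For Cyp11b1, 327 of 3116 windows did, or 10.5%. Of these, 301 windows occurred in Cyp11b2 and all lay in the coding sequence, 195 of them in the 244-base stretch printed above and the others at 3 places further along it. The other 26 lay in the 1628 bases after the stop codon and matched other genes only. In all, 55 other genes, Cyp11b2 among them, shared a 50-base window with Cyp11b1. For Akr1b7, 31 of 1232 windows occurred elsewhere, or 2.52%. Of them, 14 occurred in Akr1b10, 3 in Akr1b8 and 20 in the gene model Gm15806, some in more than 1 of these. The 59-base stretch printed above held 10 of the 31. A longer unbroken run of shared windows, with starts from base 543 to 562 of the Akr1b7 transcript, is not printed. The reads were paired, so a mate outside a shared stretch could tell the genes apart, and windows were counted for single reads. How the authors' counting treated reads that match more than 1 gene is not given in the sources used here, and the part of the levels of Cyp11b1 and Akr1b7 that comes from such reads was not tested.

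**Figure D3:**
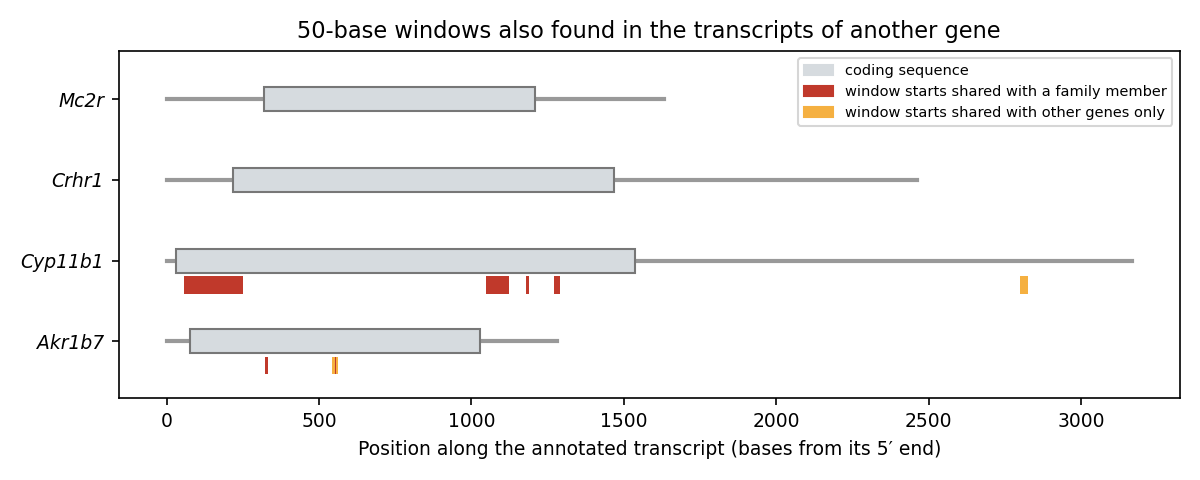
Each line is the annotated transcript of 1 gene from its 5′ end, in bases, with the coding sequence as a grey box, and the bars under it mark the starts of 50-base windows that also occur in a family member (red) or in other genes only (orange). Mc2r and Crhr1 have no bar. Cyp11b1 has 301 red window starts within its coding sequence and 26 orange ones after it, and Akr1b7 has 14 red and 17 orange ones.

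The close relatives of Cyp11b1 and Akr1b7 were also the most alike over the whole coding sequence. Aligned from end to end, 87.1% of the aligned bases of Cyp11b1 were identical to Cyp11b2, against 60.4% to Cyp11a1. Akr1b7 was identical to Akr1b10 at 89.3%, to Akr1b8 at 85.7% and to Akr1b3 at 73.1% of the aligned bases. Crhr1 was identical to Crhr2 at 73.6%. Mc2r had the least similar nearest relative of the 4 genes, being identical to Mc5r at 66.8% and to Mc1r at 60.3% of the aligned bases.

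The cells were sorted by a transgene under the control of Nr5a1, whose protein is known to bind AAGGTCA, so this motif was searched on both strands of promoters, taken as 250 bases before to 50 bases after the RefSeq start site on GRCm38.p6. Promoter sequences of Akr1b7 and Crhr1 were matched, and those of Mc2r and Cyp11b1 were not used here. The promoter of Akr1b7 held 1 match, on the minus strand and 248 bases before the start site, and that of Crhr1 held none. Of all 32851 promoters of the same length, 4.72% held the motif. The longer motif TCAAGGTCA, which contains the first, was in neither promoter and in 0.423% of all. The promoter of Akr1b7, chr6:34412112-34412411 on the plus strand, is printed because it held the match, which is in capitals as its reverse complement.
Akr1b7 promoter: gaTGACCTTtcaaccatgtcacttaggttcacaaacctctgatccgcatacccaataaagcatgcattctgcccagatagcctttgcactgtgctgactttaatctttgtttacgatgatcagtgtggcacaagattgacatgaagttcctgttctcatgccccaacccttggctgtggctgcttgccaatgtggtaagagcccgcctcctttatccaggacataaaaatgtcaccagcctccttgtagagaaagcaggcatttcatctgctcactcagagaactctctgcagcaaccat
A match is a description of the letters and not of binding.

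Leydig cell markers stood far above the 4 genes, whereas the listed markers of other testis cells spanned the levels of Mc2r, Cyp11b1 and Akr1b7. All 6 Leydig cell markers have a row, with means from 87502 to 283675 normalized counts. Among them is Nr5a1, with 101116, whose transgene was used to sort the cells, so a high level of it was selected for. Of the 19 marker symbols of peritubular myoid, immune, endothelial, germ, Sertoli and interstitial progenitor cells, 9 have a row, with means from 11.6 to 1174 normalized counts. Mc2r, with 132 normalized counts, lay among them, close to the Sertoli cell marker Amh with 137. Of the markers of the adrenal cortex other than Mc2r, Cyp11b1 and Akr1b7, which were selected as listed, Mrap has a row and Cyp11b2 and Cyp21a1 have none. Of 4 markers of the adrenal medulla, Chga had a mean of 44.4 and Pnmt one of 3.06 normalized counts, and Th and Dbh have no row. With 1 pooled value per gene, the part of other cells in the levels of the 4 genes was not tested, and in bulk RNA fewer cells with a transcript and less transcript per cell cannot be told apart.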

How the data were processed

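RNA of sorted FLCs and ALCs was sequenced in 3 libraries per stage (paired reads of 50 bases). Per the labels and methods, the authors demultiplexed reads with CASAVA 1.8.2, used GemTools for mapping to GRCm38 and their own pipeline for counts per GENCODE gene, dropped genes under 10 reads and ran DESeq2. The deposited signal averages, over the 6 libraries, the counts after division by size factors, and is listed for a selection of genes, all with a low adjusted p-value; no cut-off for listing is given in the sources used here. The 5 comparison columns (log2 fold change, its standard error, Wald statistic, p-value and adjusted p-value) hold the authors' findings and were not used. Nor was a sheet of library names, which holds no values. Depth per library, SDs and tests are therefore not given.

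Symbols were matched to GENCODE vM21 (10205 by symbol, 299 by a RefSeq synonym, 76 unmatched). The authors name another GENCODE release for their counts, so levels per kb join counts and lengths of different annotations. The effect of this on the levels per kb was not tested. Lengths, windows, motifs and alignments were computed with Python 3.11.15, pandas 2.3.3 and Biopython 1.88, and the window search was tested on simulated sequences. Alternatives were other lengths, gene sets, window sizes and a longer motif. The genes and lists were chosen with earlier results of these data known, and all genes of the lists are reported.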

Additional observations from a re-analysis of the deposited data

How the results depend on the processing

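No paired analysis was possible because the result comes from no test and the deposited mean has no value per library, and for the same reason no library could be left out. Among protein-coding genes only, the rank was 7732 for Mc2r, 1164 for Crhr1, 7046 for Cyp11b1 and 5765 for Akr1b7. Per kb of exon it was 6474, 638, 6651 and 2726. Per kb of the longest transcript it was 6915, 896, 7057 and 3438, since the lengths of other genes changed. Per kb of coding length, an alternative chosen after seeing the data, it was 7097, 1205, 7025 and 4774, and the levels were 149, 3122, 155 and 552 normalized counts per kb, against a median of 449. With the full mean divided by the number of unshared 50-base windows, the levels per kb were 83.6 normalized counts for Mc2r and 1612 for Crhr1. They were 83.8 for Cyp11b1 and 435 for Akr1b7, so Cyp11b1 then lay just above Mc2r. That division assumes that no read on a shared window was counted, which is not known. With windows of 36 and 100 bases, the share found in another gene was 13.3% and 5.58% for Cyp11b1 and 6.90% and 0% for Akr1b7. The longer motif left 0 promoters with a match in place of 1. The other 16 values equalled those given. They were ranks with a minimum mean of 10 or 100, levels per kb of longest transcript, and shares with other windows for Mc2r and Crhr1. Of these, only the shares with 36-base windows could have differed. Every mean lay above 100, each gene has 1 annotated transcript, and a shared window of 100 bases would hold shared 50-base windows. The order of Mc2r and Cyp11b1 and that within the Akr1b family thus rest on the length chosen, and the table gives no depth per library.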
